A study of Mus musculus with 12 samples.

Results

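Immediate early genes are transcribed within minutes of a stimulus, without new protein synthesis, because their promoters are served by factors that already sit in the cell and are switched on by kinases. Their messages are short-lived, and several of the proteins either carry the signal on as transcription factors or end it as phosphatases and RNA-decay factors. In liver they are best known for their response to partial hepatectomy and injury. The 10 genes described here, Fos, Fosb, Jun, Junb, Egr1, Atf3, Ier2, Ier3, Zfp36 and Dusp1, were chosen by symbol, and all 10 were found among the 38087 genes of the deposited count table.

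The 12 libraries were made from total liver RNA of germ-free C57BL/6j males aged 13 to 16 weeks, animals with no gut microbiota. The ghrelin group (6 libraries) had been given 10 µg of rat ghrelin under the skin once daily for 5 days. The PBS group (6 libraries) had been given phosphate-buffered saline on the same schedule. Ghrelin is a stomach peptide that stimulates feeding and growth hormone release. Both the injections and the samples are labelled zeitgeber time 2, counted in hours from lights on, and the interval between the last injection and sampling is not given in the labels. No label says that each library is a separate animal, so p-values measure the spread between these libraries.

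Total counts were 15775059 to 21457627 per library in the ghrelin group and 18746597 to 22302533 in the PBS group. The hepatocyte markers (Alb, Apoa1, Ttr, Serpina1a, Cps1 and Tat) summed to 73200 to 89030 CPM (read counts scaled to library size) with ghrelin and 78270 to 110300 CPM with PBS. All 10 immediate early genes passed the filter on low counts, which left 14170 genes for the test. In whole liver, fewer cells of a type and less RNA per cell cannot be told apart.

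Most members are compact genes. In the GENCODE M21 annotation on GRCm38 their median span was 3852.5 bp, against 24874 bp over the 12115 tested genes with a complete coding transcript (85.5% of those tested). All 10 had fewer than 5 exons in their longest coding transcript, as did 20.2% of the tested genes. Jun, Junb and Ier2 had a single exon there. Dusp1 (chromosome 17, 26505590 to 26562128, minus strand) and Atf3 (chromosome 1, 191170296 to 191218039, minus strand) were the exceptions, with spans of 56539 and 47744 bp. A span covers all annotated transcripts of a gene. The RefSeq start sites of Dusp1 and Atf3, at 26508472 and 191183333, lie inside these spans, so transcripts from those starts cover less. The pentamer ATTTA, the core of the AU-rich elements that recruit Zfp36 and its relatives to degrade a message, occurred in the 3′ UTR of 9 of the 10 members and in 69.2% of the tested genes. At least 3 copies were present in 6 members and in 38.1% of the tested genes. The longer form TATTTAT was found in 7 members and in 29.7% of the tested genes. Per kilobase of 3′ UTR the members held 2.82 copies of ATTTA, against 1.83 over the tested genes. Ier3 had 5 copies, the most among the members, and Ier2 had 0. These are matches of letters and do not show binding.

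**Figure D1:**
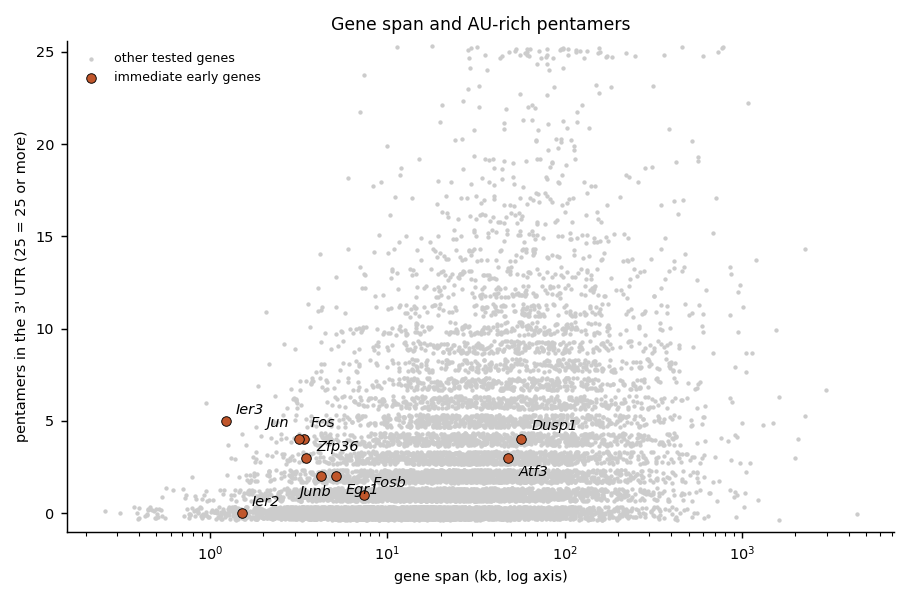
Gene span on a log axis against the number of ATTTA pentamers in the 3′ UTR, for the 10 members (labelled) and the other tested genes (grey, spread vertically to show density, counts of 25 or more at the top). Ier3 combines a span of 1240 bp with 5 copies. Dusp1 and Atf3 have the longest spans of the members when all annotated transcripts are covered.

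The AU-rich sites of 5 members follow, chosen because each packs more than 1 pentamer into 30 bases. Egr1 was not searched for such a site. Capitals mark ATTTA, letters are 5′ to 3′ on the transcript, and coordinates are GRCm38.
Fos 3′ UTR site, chr12:85477100-85477129, plus strand: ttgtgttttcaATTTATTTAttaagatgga
Jun 3′ UTR site, chr4:95049207-95049236, minus strand: atcATTTAtaatcataggaaagATTTAgta
Ier3 3′ UTR site, chr17:35822484-35822513, plus strand: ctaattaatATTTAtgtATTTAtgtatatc
Zfp36 3′ UTR site, chr7:28376958-28376987, minus strand: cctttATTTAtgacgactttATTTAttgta
Dusp1 3′ UTR site, chr17:26506157-26506186, minus strand: agctggtccttATTTATTTAacacccccct

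In Fos and Dusp1 the pentamers overlap in a run, whereas in Jun, Ier3 and Zfp36 they stand apart. Zfp36 itself is among the messages with such sites, and its protein is known to act on its own transcript.

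Promoters were available from RefSeq for 8 of the 10 members, without Egr1 and Ier2, on GRCm38.p6. In the 250 bases before the start site, the cyclic AMP response element (CRE) core TGACG, searched on both strands, occurred in 5 of the 8 (Fos, Fosb, Junb, Atf3 and Dusp1) and in 17.8% of 32851 promoters. The full CRE TGACGTCA, which contains that core on each strand, was found in Dusp1 alone and in 1.55% of all promoters. The SP1 box GGGCGG was present in 7 of the 8, all but Junb, and in 32.7% of promoters. A TATAAA box on the gene's strand was present in Fos (7.59% of promoters), and a CArG box, the site of serum response factor, in Zfp36 (1.47% of promoters). That CArG box overlaps an annotated exon of Zfp36. Bases more than 250 before the start site were not searched, so sites farther upstream would be missed. The AP-1 site TGANTCA was found in none of the 8 windows and in 6.75% of promoters. The 4 promoters that hold a CRE core outside annotated exons follow, with capitals for CRE cores, the full CRE and the TATA box. Each is written on the strand of its gene and holds no base of that gene's annotated exons. The Dusp1 stretch lies upstream of the RefSeq start but inside the longer span annotated by GENCODE.
Fos promoter, chr12:85473640-85473889, plus strand: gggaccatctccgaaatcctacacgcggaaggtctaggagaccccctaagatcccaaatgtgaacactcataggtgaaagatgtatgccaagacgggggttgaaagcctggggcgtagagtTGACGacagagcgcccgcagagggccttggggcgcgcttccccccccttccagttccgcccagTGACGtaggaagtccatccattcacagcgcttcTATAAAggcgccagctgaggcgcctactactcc
Fosb promoter, chr7:19310052-19310295, minus strand: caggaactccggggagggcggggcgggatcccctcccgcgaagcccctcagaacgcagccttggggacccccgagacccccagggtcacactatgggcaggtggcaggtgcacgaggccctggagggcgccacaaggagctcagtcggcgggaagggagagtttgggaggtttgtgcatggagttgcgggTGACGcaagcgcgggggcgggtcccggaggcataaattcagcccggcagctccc
Junb promoter, chr8:84978749-84978998, minus strand: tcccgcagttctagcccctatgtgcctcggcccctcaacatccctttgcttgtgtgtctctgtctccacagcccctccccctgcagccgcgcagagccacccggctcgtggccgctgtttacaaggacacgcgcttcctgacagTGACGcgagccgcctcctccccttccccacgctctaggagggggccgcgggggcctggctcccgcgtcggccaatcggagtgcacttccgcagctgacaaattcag
Dusp1 promoter, chr17:26508520-26508722, minus strand: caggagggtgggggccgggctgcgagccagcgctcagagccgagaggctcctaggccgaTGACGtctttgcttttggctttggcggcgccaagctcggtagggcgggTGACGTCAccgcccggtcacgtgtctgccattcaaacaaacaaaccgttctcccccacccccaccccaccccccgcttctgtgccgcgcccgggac

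In Fos the CRE cores begin 129 and 66 bases before the start and the TATA box 33 bases before it. In Dusp1 the full CRE begins 143 bases and a separate core 191 bases before the start. In Fosb the core begins at 60 and in Junb at 106 bases.

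Levels spanned a wide range. Divided by the length of the longest coding transcript, Junb was the most abundant, at 53.2 ± 18.4 CPM per kb with ghrelin and 36.0 ± 11.7 with PBS (SD, n = 6 each). Zfp36 followed with 19.3 ± 6.66 CPM per kb with ghrelin and 19.8 ± 7.19 with PBS. Dusp1 had 9.43 ± 3.77 CPM per kb with ghrelin and 18.9 ± 7.41 with PBS, and Ier2 had 9.51 ± 1.68 with ghrelin and 10.9 ± 0.727 with PBS. The next in order were Jun (2.51 ± 0.814 with ghrelin, 3.98 ± 2.41 with PBS) and Egr1 (2.16 ± 1.45 with ghrelin, 2.44 ± 1.49 with PBS). The lowest were Fos, Ier3, Atf3 and Fosb, with means of 0.768, 0.659, 0.359 and 0.117 CPM per kb with ghrelin and 1.73, 0.566, 1.38 and 0.383 with PBS. Neighbours in this order overlapped. Junb and Zfp36 did so in ghrelin livers (26.2 to 76.0 and 11.3 to 29.5 CPM per kb) and in PBS livers (19.3 to 52.3 and 11.7 to 29.2 CPM per kb). Zfp36 and Dusp1 overlapped in PBS livers (11.7 to 29.2 and 11.3 to 29.4 CPM per kb). Dusp1 and Ier2 overlapped in ghrelin livers (4.65 to 13.95 and 8.03 to 12.7 CPM per kb), and Jun and Egr1 in both groups. Fosb rested on 2 to 141 counts per library, Ier3 on 9 to 21 and Atf3 on 9 to 243, so their values carry much counting error.

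**Figure D2:**
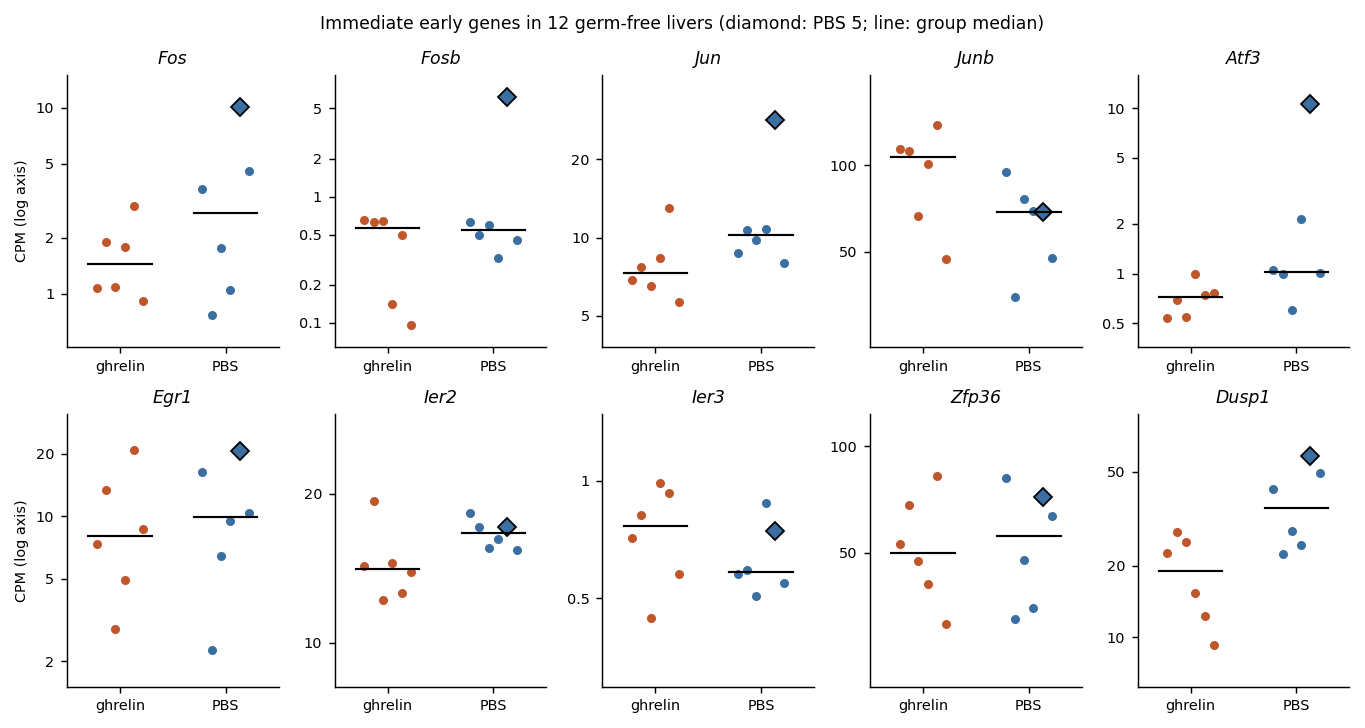
CPM of each gene on a log axis, one point per library, ghrelin left and PBS right, with a line at the group median. The diamond is the library PBS 5, which lies far above the other PBS livers for Fosb (6.18 CPM), Atf3 (10.7 CPM) and Jun (28.3 CPM).

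None of the 10 members passed the test of ghrelin against PBS. Of the 14170 genes tested with edgeR's quasi-likelihood F test, 15 (0.106%) had a p under 0.05 after Benjamini-Hochberg adjustment. At an unadjusted p under 0.05 the members numbered 5 lower (Fos, Fosb, Jun, Atf3 and Dusp1) and 1 higher (Junb), where 6.94% of all genes were lower and 6.44% higher at that level. The median log2 fold change, ghrelin over PBS, was -0.44 over the members and 0.00 over all genes. Without PBS 5 it was -0.21 over the members and 0.00 over all genes. DESeq2 also called 0 members, where it called 1.87% of the 11792 genes to which it gave an adjusted p; Fosb and Ier3 were given none. In DESeq2, 2 members had an unadjusted p under 0.05, as did 2066 of 27410 genes. Limma voom called 0 members, with 2 at an unadjusted p under 0.05, as had 1869 of 14170 genes. The groups overlapped for all 10 members; 0.826% of the tested genes did not overlap.

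The AP-1 transcription factors come first. Fos pairs with Jun proteins to form the AP-1 dimer. In ghrelin livers Fos had a lowest value of 0.912, a median of 1.44 and a highest of 2.97 CPM, against 0.770, 2.71 and 10.0 CPM in PBS livers. The high PBS values were those of PBS 5, PBS 6 (4.56 CPM) and PBS 1 (3.67 CPM), while PBS 2 lay below every ghrelin liver. Its log2 fold change was -1.20 (SE 0.53, unadjusted p = 0.0390, adjusted p = 0.345 in edgeR) and -0.56 (SE 0.43, unadjusted p = 0.218) without PBS 5. Fos spans chromosome 12, 85473890 to 85477273, on the plus strand.

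Fosb, a close relative of Fos, ran from 0.0960 through a median of 0.562 to 0.655 CPM in ghrelin livers, and from 0.329 through 0.549 to 6.18 CPM in PBS livers. Apart from PBS 5, no library exceeded 0.655 CPM, and the medians were nearly equal. The log2 fold change of -1.77 (SE 0.78, adjusted p = 0.340 in edgeR) became -0.23 (SE 0.41) without PBS 5. Fosb spans chromosome 7, 19302696 to 19310051, on the minus strand.

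Jun, the partner of Fos in AP-1, had 5.66, 7.29 and 12.9 CPM as lowest, median and highest value with ghrelin, against 7.98, 10.2 and 28.3 CPM with PBS. PBS 5 and ghrelin 5 stood above the others of their groups, and the other PBS livers lay within 7.98 to 10.7 CPM. The log2 fold change was -0.68 (SE 0.29, adjusted p = 0.339 in edgeR) and -0.26 (SE 0.18) without PBS 5. Jun lies on chromosome 4, 95049034 to 95052222, on the minus strand, and shares 232 exonic bases with the antisense gene Junos.

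Junb, an AP-1 protein that often restrains Jun, was the only member with an unadjusted p under 0.05 in the upward direction. It had 47.3, 106 and 138 CPM as lowest, median and highest value with ghrelin, against 34.8, 68.8 and 94.7 CPM with PBS. In 4 ghrelin livers it exceeded every PBS liver, while ghrelin 3 (66.5 CPM) and ghrelin 6 lay inside the PBS range. The log2 fold change was 0.56 (SE 0.25, unadjusted p = 0.0389, adjusted p = 0.345 in edgeR) and stayed between 0.44 and 0.71 when any 1 library was left out. PBS 5 was ordinary for Junb, at 68.6 CPM. Junb (chromosome 8, 84974484 to 84978718, minus strand) shares 173 exonic bases with Prdx2 on the opposite strand, and whether the authors' counting used strand is not given in the sources used here.

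The other transcription factors differed from each other. Atf3, a stress-induced repressor of the same protein family, had 0.536, 0.717 and 0.988 CPM as lowest, median and highest value with ghrelin, against 0.601, 1.03 and 10.7 CPM with PBS. The ghrelin livers were all below 1 CPM, whereas PBS 4 had 2.14 CPM and PBS 5 stood far apart. Its log2 fold change was -1.94 (SE 0.66, unadjusted p = 0.0103, adjusted p = 0.248 in edgeR). Without PBS 5 it was -0.67 (SE 0.30, adjusted p = 0.316). Egr1, a zinc finger factor induced by growth signals, had 2.87, 8.03 and 20.8 CPM with ghrelin, against 2.27, 9.94 and 20.7 CPM with PBS. Both groups covered the same range for Egr1, the highest library being 7.25 times the lowest with ghrelin and 9.13 times with PBS. Its log2 fold change was -0.19 (SE 0.46, adjusted p = 0.897 in edgeR), and it was 0.10 without PBS 5.

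Of the IER genes, which were named for being early response genes, Ier2 was the steadiest member. It had 12.2, 14.1 and 19.3 CPM as lowest, median and highest value with ghrelin, against 15.4, 16.7 and 18.3 CPM with PBS. The 5 ghrelin livers other than ghrelin 2 lay below every PBS liver, the highest of them at 14.5 CPM. The log2 fold change was -0.20 (SE 0.10, unadjusted p = 0.0589, adjusted p = 0.396 in edgeR). Without ghrelin 2, the highest library, it was -0.30 (unadjusted p = 0.00125, adjusted p = 0.146 in edgeR). No other omission of 1 library gave an unadjusted p under 0.05, and the largest was 0.145, without ghrelin 3. Ier2 lies on chromosome 8, 84661331 to 84662852, minus strand. Ier3, an early gene that modulates cell survival, had 0.445 to 0.988 CPM with ghrelin and 0.508 to 0.877 CPM with PBS. Its log2 fold change was 0.21 (SE 0.24, adjusted p = 0.738 in edgeR). Ier3 lies on chromosome 17, 35821684 to 35822923, plus strand.

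The feedback regulators are Zfp36, or tristetraprolin, which binds AU-rich messages and speeds their decay, and Dusp1, the phosphatase that switches off p38 and JNK kinases. Dusp1 had the smallest p among the members. It had 9.26, 19.1 and 27.8 CPM as lowest, median and highest value in ghrelin livers, against 22.6, 35.1 and 58.5 CPM in PBS livers. Ghrelin 4, ghrelin 5 and ghrelin 6, at 15.4, 12.3 and 9.26 CPM, lay below every PBS liver, and PBS 1, PBS 3, PBS 5 and PBS 6, at 42.2, 28.1, 58.5 and 49.6 CPM, above every ghrelin liver. The means were 18.8 ± 7.51 CPM with ghrelin and 37.6 ± 14.7 CPM with PBS (SD, n = 6 each), a log2 fold change of -1.01 (SE 0.28, unadjusted p = 0.00268, adjusted p = 0.172 in edgeR). Leaving out any 1 library gave -1.15 to -0.83 with unadjusted p from 0.00123 to 0.00830. It shares 11 exonic bases with Ergic1 on the opposite strand.

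Zfp36 had 31.4, 50.1 and 82.3 CPM with ghrelin, against 32.6, 55.7 and 81.4 CPM with PBS. The groups covered the same range, and the log2 fold change was -0.04 (SE 0.25, adjusted p = 0.963 in edgeR). Zfp36 lies on chromosome 7, 28376784 to 28380253, minus strand, and shares 125 exonic bases with an antisense gene.

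**Figure D3:**
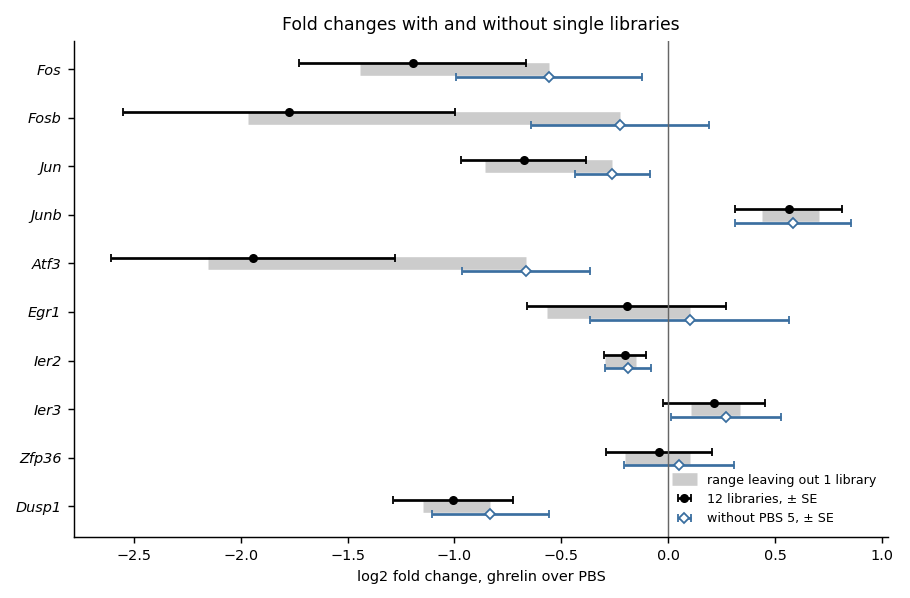
Log2 fold change, ghrelin over PBS, with SE from all 12 libraries (dots) and without PBS 5 (diamonds); grey bars span the values with any 1 library left out. Fosb is at -1.77 over all libraries and -0.23 without PBS 5, and Atf3 at -1.94 and -0.67, while Dusp1 (-1.01 and -0.83) and Junb (0.56 and 0.58) move little.

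One liver, PBS 5, carried much of the spread of Fosb, Atf3 and Jun within the PBS group. Each library was set against the other 5 of its group, gene by gene, on the log2 CPM scale. In PBS 5 all 10 members lay above the mean of the other PBS livers, and 5 of them (Fos, Fosb, Jun, Atf3 and Egr1) were among the 142 genes with the largest excess, the top 1% of 14170. Fosb ranked 2nd with an excess of 3.40, Atf3 3rd with 3.20, Fos 7th with 2.34, Jun 26th with 1.56 and Egr1 35th with 1.45. No other library had more than 2 members in its top 1%, and that was ghrelin 5, with 8 of 10 members above 0. PBS 5 was the highest of all 12 libraries for 5 members and for 6.92% of all tested genes. In ghrelin 3, ghrelin 6, PBS 2 and PBS 3 most members lay below the mean of the other 5, with 2, 2, 1 and 1 of 10 above 0. For PBS livers other than PBS 5, that mean includes PBS 5, which lowers their deviations for the genes high in it. Fosb in PBS 3, for example, had a deviation of -0.39 at 0.601 CPM, above the PBS median of 0.549 CPM. PBS 5 was singled out after its values were seen.

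**Figure D4:**
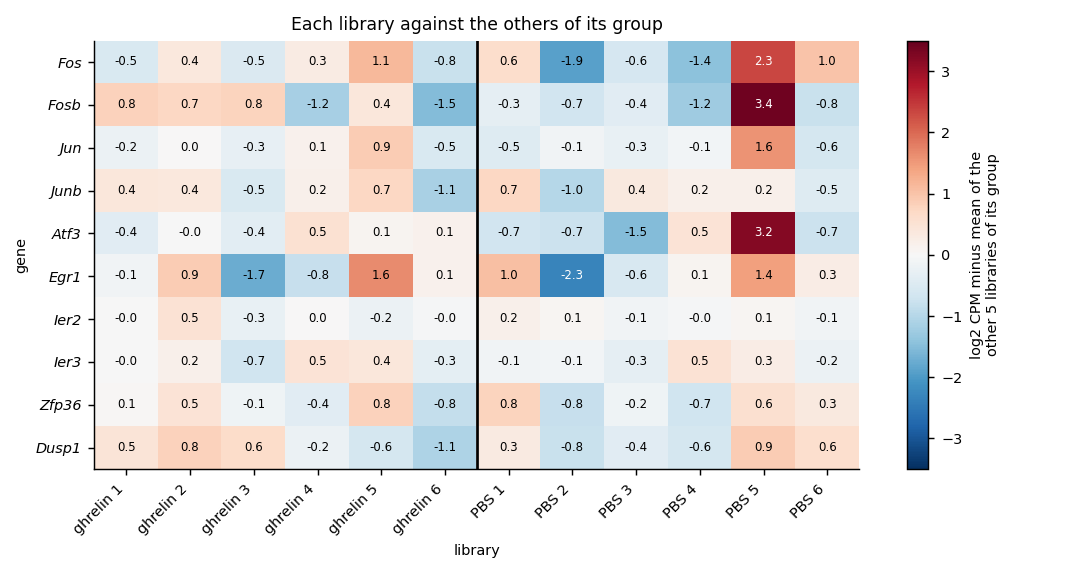
Log2 CPM of each gene in each library minus the mean of the other 5 libraries of its group, ghrelin libraries left of the line and PBS libraries right of it. PBS 5 shows excesses of 3.4 for Fosb, 3.2 for Atf3 and 2.3 for Fos, and values near 0 for Ier2 and Junb.

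Without PBS 5, 0 of the 10 members were called by edgeR (0.168% of 14312 genes were called), and at an unadjusted p under 0.05 there remained Atf3 and Dusp1 on the lower side (7.78% of genes) and Junb on the higher side (7.33%). Fos averaged 1.62 ± 0.776 CPM with ghrelin and 2.36 ± 1.67 CPM in the other 5 PBS livers (SD, n = 6 and 5). Jun averaged 8.00 ± 2.60 CPM with ghrelin and 9.58 ± 1.201 CPM in those 5.

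The members varied widely between libraries of a group. The median coefficient of variation over the 10 genes was 34.6% within the ghrelin group and 49.9% within the PBS group, against 13.0% and 12.6% over all tested genes. In edgeR's dispersion estimates, which allow for counting error, Fosb, Atf3, Fos and Egr1 lay at the 99.9, 99.8, 99.7 and 99.6 percentiles of all genes, Jun and Dusp1 at 97.0 and 96.9, and Junb and Zfp36 at 95 and 94.8. Ier2 and Ier3 ranked at the 45.4 and 67.9 percentiles. These percentiles come from all 12 libraries, PBS 5 included, and are not given without it. The ratio of the highest to the lowest library was 1.58 with ghrelin and 1.19 with PBS for Ier2. For Atf3 it was 1.84 with ghrelin and 17.7 with PBS, and for Fos 3.26 with ghrelin and 13.0 with PBS. Without PBS 5 the median coefficient of variation within the PBS group was 36.0%.

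Of all pairs of members, Fos and Zfp36 were the most closely correlated over the libraries. After group means were removed, none of the 45 pairs passed after adjustment by Pearson's r of log2 CPM over the 12 libraries, and 1 passed by Spearman's rho. The sign of r was positive in 44 pairs, with a median of 0.40, and in 37 pairs without PBS 5, with a median of 0.24. That pair was Fos and Zfp36 (r = 0.82, permutation p = 0.00113, adjusted 0.0509; rho = 0.88, permutation p = 4.9e-04, adjusted 0.0221). Its r was 0.88 without PBS 5 and PBS 6, the libraries farthest from the median of Fos, 0.78 within ghrelin and 0.90 within PBS. Without PBS 5 alone, r was 0.86 (permutation p adjusted to 0.0554) and rho 0.83, and 0 of the 45 pairs passed by r or rho. Fos and Egr1 had r = 0.74 (rho = 0.75, permutation p = 0.00585 for r and 0.00693 for rho, adjusted 0.0764 for r), and 0.72 without the same pair of libraries. Egr1 and Zfp36 had r = 0.72 (rho = 0.76, permutation p = 0.0084 for r and 0.00613 for rho, adjusted 0.0764 for r).

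Other pairs rested on PBS 5. Jun and Atf3 had r = 0.80 (rho = 0.59, permutation p = 0.00849 for r and 0.0484 for rho, adjusted 0.0764 for r), and 0.24 without PBS 5. Fosb and Atf3 had r = 0.62 (rho = -0.02, permutation p = 0.0633 for r and 0.957 for rho, adjusted 0.178 for r), and -0.57 without it. Fos and Dusp1 had r = -0.06 within ghrelin and 0.99 within PBS, so the pooled value of 0.59 does not describe both groups; the difference was not tested.

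**Figure D5:**
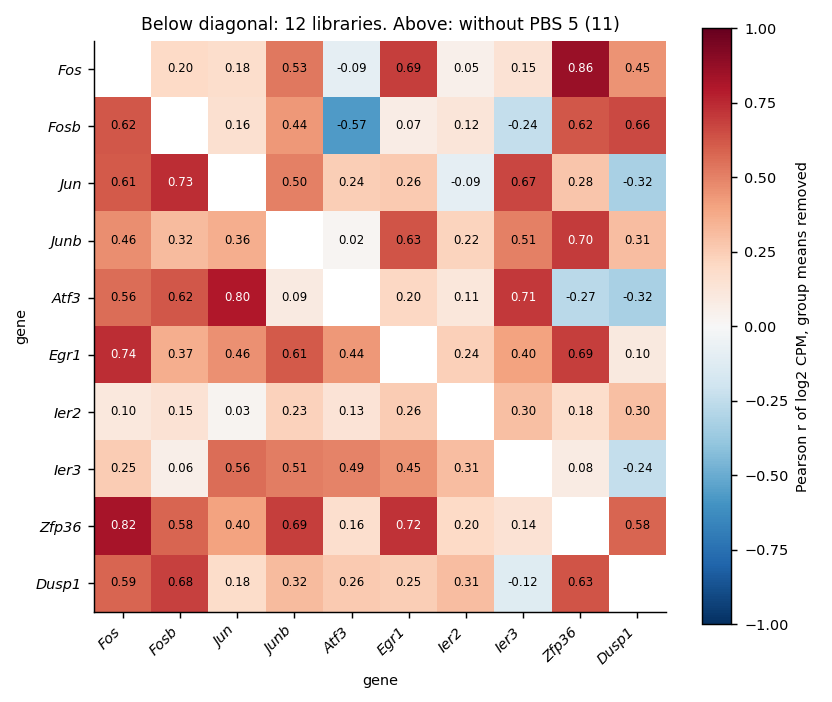
Pearson r of log2 CPM between members after group means were removed, over 12 libraries below the diagonal and without PBS 5 above it. Fos, Egr1 and Zfp36 keep r of 0.69 to 0.86 without PBS 5, while Jun and Atf3 drop to 0.24.

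The genes most like 4 of the members were sought by the same r among 11366 genes. These are no members, average at least 1 CPM and have a proper gene symbol. The 5 with the highest r are given for each, so a high r follows from the search itself. Values without PBS 5 use the same remaining libraries and are no separate check. The lists are descriptions over 12 libraries, and no link between genes was tested. For Atf3 they were Klf6, a Krüppel-like factor (r = 0.92), the chemokine Cxcl10 (0.89), the keratin Krt8 (0.87), Srebf1, a factor of lipid synthesis (0.85), and Prpf40b (0.84). Klf6 kept 0.78 without PBS 5, whereas Cxcl10, Krt8, Srebf1 and Prpf40b had 0.50, 0.60, 0.46 and 0.37. For Dusp1 they were Mrap (0.95), Iscu (0.92), Psmb3 (0.90), Insig2 (0.90) and Srf (0.90), the last encoding serum response factor, which drives many immediate early genes. Srf had 6.34 to 11.4 CPM with ghrelin and 9.01 to 14.4 CPM with PBS (log2 fold change -0.25, adjusted p = 0.489 in edgeR), and its r with Dusp1 was 0.88 without PBS 5. For Fos they were Ip6k2 (0.91), the transcript listed as Telomerase-vert (0.91), Slc1a4 (0.90), Ptms (0.90) and Mfsd3 (0.90). For Egr1 they were Moap1 (0.92), Mea1 (0.92), Tmem30b (0.87), Gtpbp1 (0.87) and Pde3b (0.86).

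Related genes gave no call either, and with 0.106% of all genes called, lists of this size would rarely hold 1. At an unadjusted p under 0.05, 6.94% of all genes were lower and 6.44% higher. Of 34 tested genes among 38 other early response genes, 0 were called by edgeR, 6 were lower and 1 higher at an unadjusted p under 0.05, and the median log2 fold change was -0.19. Per1, a clock gene that also responds acutely to glucocorticoids and cyclic AMP, had 10.8 to 16.5 CPM with ghrelin and 15.6 to 28.1 CPM with PBS (log2 fold change -0.57, SE 0.12, adjusted p = 0.0985). Klf4, a Krüppel-like factor, averaged 1.26 ± 0.239 CPM with ghrelin and 2.30 ± 0.701 CPM with PBS (-0.87, SE 0.22, adjusted p = 0.147). Plk3, a stress-responsive kinase, averaged 28.9 ± 9.43 CPM with ghrelin and 44.97 ± 9.29 CPM with PBS (-0.64, SE 0.20). Gadd45a, a gene of growth arrest and DNA damage, averaged 2.84 ± 1.06 CPM with ghrelin and 1.80 ± 0.781 CPM with PBS (0.69, SE 0.28).

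Among the other dual specificity phosphatases, 0 of 7 tested were called (0.106% of all genes). At an unadjusted p under 0.05, 3 were lower (6.94% of all genes), and the median log2 fold change was -0.31. Dusp8 had 0.0480 to 0.743 CPM with ghrelin and 0.472 to 1.75 CPM with PBS (-1.59, SE 0.46, adjusted p = 0.187 in edgeR), PBS 5 being highest. Dusp6, which acts on ERK kinases, averaged 44.8 ± 6.95 CPM with ghrelin and 56.0 ± 7.53 CPM with PBS (-0.32, SE 0.10), and Dusp16 had a log2 fold change of -0.25 (SE 0.10).

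Of 11 tested genes of the wider AP-1 and bZIP family, 0 were called (0.106% of all genes). At an unadjusted p under 0.05, 3 of them were lower, with a median log2 fold change of -0.13. Over all genes, 6.94% were lower and 6.44% higher at that level. In this family, Maff, a small Maf protein, averaged 3.66 ± 1.01 CPM with ghrelin and 5.05 ± 0.830 CPM with PBS (-0.47, SE 0.17). Maf had a log2 fold change of -0.17 (SE 0.07). Jdp2, which dimerizes with Jun, had -0.39 (SE 0.19), with its highest value of 4.34 CPM in PBS 5. In the list of the ZFP36 family and AU-rich decay, 0 of 11 were called, with 1 higher (Cnot8, 0.20, SE 0.06) and 1 lower (Hnrnpd, -0.27, SE 0.08) at an unadjusted p under 0.05 and a median of -0.06. Of 22 kinases and factors upstream, 0 were called, with 1 higher (Map2k2, 0.16) and 2 lower (Creb1, -0.19, and Ep300, -0.17) at that level and a median of -0.06.

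Values of other cell types and of stress genes are given beside these results, and their part was not tested. The 6 tested of 10 neutrophil markers summed to 2.82 to 7.34 CPM with ghrelin and 7.18 to 14.1 CPM with PBS, the highest being PBS 5. The log2 fold change was negative for all 6 (median -0.99), as it was for 7083 of all 14170 genes. Of the 6, 0 were called by edgeR (0.106% of all genes). At an unadjusted p under 0.05, 3 were lower (6.94% of all genes). Camp was at 0 counts in all 12 libraries. The 11 tested of 12 Kupffer cell and macrophage markers summed to 306.7 to 410.2 CPM with ghrelin and 229.8 to 426.6 CPM with PBS. The 2 tested of 8 lymphocyte markers summed to 1.55 to 2.79 CPM with ghrelin and 1.37 to 2.98 CPM with PBS. Endothelial (8 of 8), stellate (8 of 8), cholangiocyte (5 of 6) and red cell (3 of 5) markers had medians of 462, 390.4, 28.2 and 130.4 CPM with ghrelin and 459, 382, 26.2 and 119 CPM with PBS. The 8 heat shock genes summed to 829 to 1375 CPM with ghrelin and 866 to 1345 CPM with PBS, with 1 lower at an unadjusted p under 0.05 (Dnajb1, -0.26). The 9 acute phase genes summed to 2579 to 5954 CPM with ghrelin and 2688 to 8991 CPM with PBS, all 9 with a negative log2 fold change and 0 at an unadjusted p under 0.05. PBS 5 was near the low end of the acute phase values, at 2688 CPM.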

How the data were processed

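The authors deposited unnormalized exon counts, 1 value per gene and library. Per the labels' protocols, total RNA was depleted of ribosomal RNA and made into stranded libraries. Per the submitters' processing notes, STAR 2.4.0i and mm10 were used; how reads were counted, and whether by strand, is not given in the sources used here, which leaves overlapping genes uncertain. The filter on low counts was edgeR's filterByExpr (version 4.0.16, at least 10 counts and a total of 15), followed by TMM scaling; the 6 ghrelin and 6 PBS libraries were compared by the two-sided quasi-likelihood F test in R 4.3.3, adjusted over all genes. CPM values use TMM factors; log2 CPM values add a prior count of 2. Library pairs within a group differed by 10.8 to 44.4 times counting variance, so none agreed within sampling noise. Correlations were tested with 100000 permutations. DESeq2 1.42.0 and limma 3.58.1 served as alternatives. The test was tested on simulated data. Gene structure came from GENCODE M21, matched by identifier.

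The members and lists were chosen with earlier results of these data known. Genes named are all members, up to 4 tested genes of each related list with the smallest unadjusted p, and the 5 genes most like Fos, Egr1, Atf3 and Dusp1 by r, except 1 gene that is not reported here; PBS 5 was singled out after its values were seen. Replicate numbers shared between the groups entered only an alternative fit.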

Additional observations from a re-analysis of the deposited data

Results flagged for a closer look

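Within a group of 6, a library was taken as standing apart where its gap to the nearest other exceeded Dixon's 95% critical value. For independent values with a normal distribution, chance gives about 1 in 20 groups. The values here were CPM without logs, and many of the genes were picked for likeness to a member. The number that stood out therefore cannot be read against that share. Of 118 groups of values examined, 18 stood out, 8 of them in PBS 5 and 5 in ghrelin 5. Among the members, PBS 5 stood apart for Fosb (6.18 CPM, the other PBS livers 0.329 to 0.629), for Jun (28.3 CPM, the others 7.98 to 10.7) and for Atf3 (10.7 CPM, the others 0.601 to 2.14). Ghrelin 5 stood apart for Jun (12.9 CPM, the other ghrelin livers 5.66 to 8.37) and ghrelin 2 for Ier2 (19.3 CPM, the others 12.2 to 14.5).

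Among related genes PBS 5 also stood apart for Cxcl10 (3.11 CPM), Dusp8 (1.75 CPM), Jdp2 (4.34 CPM), Krt8 (174.5 CPM) and Prpf40b (9.42 CPM). Cxcl10, Krt8 and Prpf40b were picked for their likeness to Atf3, so their flags in this library are not independent of that gene. Ghrelin 5 stood apart for Ip6k2 (52.9 CPM), Slc1a4 (5.39 CPM), Telomerase-vert (9.97 CPM) and Dusp8 (0.743 CPM), the first 3 of which were picked for likeness to Fos. Ghrelin 2 stood apart for Cxcl10 (1.57 CPM) and Jdp2 (3.27 CPM). PBS 4 stood apart for Gadd45a (3.23 CPM), and PBS 3 for Orm2 (99.0 CPM).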

How the results depend on the processing

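In edgeR the number of called genes over all genes was 15. It was 63 with no count filter, 9 with robust estimation, 58 with the replicate block and 221 in DESeq2, and 0 (without ghrelin 1 or ghrelin 3, with 1675 and 1536 genes at an unadjusted p under 0.05) to 32 (without ghrelin 4) when 1 library was left out; the cause was not tested. RLE size factors, upper quartile factors, library totals, a filter at 1 CPM and limma voom gave 14 to 16, and upper quartile factors gave 1063 higher and 834 lower genes at an unadjusted p under 0.05, against 913 and 983. The number of members called stayed 0 under every one of these settings. The replicate numbers were not treated as pairs, since no label says that they pair animals. Deviations of same-numbered libraries had r of -0.081 to 0.272, and 4 of 12 libraries correlated best with their own number. Whether the numbers mark pairs was not tested. With the replicate block the smallest adjusted p among the members was 0.0545, for Jun. Fos, Fosb, Jun, Junb, Atf3, Ier2, Ier3 and Dusp1 kept their sign in all settings that gave a value; a filter at 1 CPM removed Fosb and Ier3. The log2 fold change of Egr1 ran from -0.57 to 0.10 and that of Zfp36 from -0.20 to 0.10 when 1 library was left out. Without the 2 libraries farthest on the x axis 2 pairs of members passed by r (Fos with Zfp36, and Zfp36 with Dusp1), against 0 over 12 libraries, 0 without removal of group means and 0 without PBS 5, a setting chosen after seeing the data; the cause was not tested. The median coefficient of variation ran from 29.7% to 38.6% within ghrelin and from 36.0% to 53.1% within PBS when 1 library was left out. Low counts limit Fosb, Ier3 and Atf3.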
